A study of Mus musculus with 18 samples.

Results

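The genes described here are 10 genes of the limb muscle lineage, ordered from migrating precursors to differentiating cells: Pax3, Lbx1, Met, Pax7, Myf5, Msc, Myod1, Myog, Actc1 and Des. They were taken by symbol from the 3 expression tables of a study of mouse limb buds, which list 14686 genes between them, 12677 of them in all tables. Of the muscle genes 5, Pax3, Lbx1, Met, Myf5 and Des, were listed in every table. Pax7, Myod1 and Myog were not listed in the CD1 table, and these 3 genes, Msc and Actc1 were not listed in the e11.0 table, while the e11.5 table listed all 10. A gene had to exceed 0.5 CPM in at least 3 libraries to be listed, so levels of a gene that was not listed were not analysed here. CPM are read counts scaled to a total of 1000000 over the listed genes of a library.

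The 6 groups had 3 libraries each (n = 3), and all were bulk RNA from limb buds of timed matings. The first table held wild-type CD1 forelimb buds at e10.5 and wild-type CD1 hindlimb buds at e11.0. The second held hindlimb buds at e11.0 from Pitx1 wild type and Pitx1 null embryos, both BALB/c, and the third held the same genotypes at e11.5. Pitx1 encodes a homeodomain transcription factor of the hindlimb, and what the null allele deletes is not stated in the labels. In CD1 the limb type changes together with the age, and these cannot be told apart. Ribosomal RNA was depleted for the earlier ages and mRNA was enriched at e11.5, so age and library preparation cannot be told apart either. Replicates 1 and 2 of all groups share a single sequencing run, called the shared run below, and no replicate 3 title names that run.

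Limb muscle does not form from the limb bud's own mesenchyme. Its precursors leave the dermomyotome, the epithelial part of the somites facing the bud, and migrate in. Pax3 is the paired-domain transcription factor that sets up these cells and Lbx1 is a homeodomain factor of their migration. Met is the receptor that lets them detach and move in response to Hgf, the growth factor secreted by limb mesenchyme. Inside the bud the cells switch on the basic helix-loop-helix (bHLH) factors Myf5 and Myod1, which commit them to muscle, then Myog, which drives differentiation, and then genes of the contractile apparatus. Pax7 marks a population of progenitors that is kept for later growth, and Msc (musculin, or MyoR) is a bHLH repressor of early muscle cells.

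In GRCm38 the genes lie on 7 chromosomes. Pax3 (chromosome 1, 78101267 to 78197134, minus strand), Msc (chromosome 1, 14753346 to 14755992, minus strand), Myog (chromosome 1, 134289989 to 134292548, plus strand) and Des (chromosome 1, 75360329 to 75368579, plus strand) share a chromosome. Lbx1 lies on chromosome 19 (45232684 to 45235812, minus strand) and Met on chromosome 6 (17463800 to 17573980, plus strand). Pax7 lies on chromosome 4 (139737062 to 139833528, minus strand) and Myf5 on chromosome 10 (107482908 to 107486134, minus strand). Myod1 lies on chromosome 7 (46376474 to 46379099, plus strand) and Actc1 on chromosome 2 (114047282 to 114053548, minus strand). All are protein-coding. An antisense gene overlaps exons of Msc (Gm9947) and of Des (Gm15179), and because strand use in counting is not stated, reads of these pairs could not be separated. The coding sequence of Actc1 is close to those of other actin genes and the treatment of reads with several matches is not stated, so its level is uncertain.

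RefSeq promoter sequences (GRCm38.p6) matched 6 of the 10 genes. The 250 bases before the RefSeq start are shown for Myf5, a commitment gene, for Myog, a differentiation gene that was much lower in null hindlimb at e11.5, and for Des, a filament gene that was not. Capitals mark matches, on either strand, to the E-box CANNTG bound by the bHLH factors and to TAATCC, the sequence preferred by Pitx factors. A match is a description of letters, not a site of binding.
Myf5, chr10:107486135-107486384, minus strand: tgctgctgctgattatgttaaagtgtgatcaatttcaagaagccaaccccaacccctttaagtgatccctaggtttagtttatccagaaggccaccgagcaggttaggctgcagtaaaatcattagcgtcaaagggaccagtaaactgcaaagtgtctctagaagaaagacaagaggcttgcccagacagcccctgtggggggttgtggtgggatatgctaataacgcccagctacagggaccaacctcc
Myog, chr1:134289754-134290003, plus strand: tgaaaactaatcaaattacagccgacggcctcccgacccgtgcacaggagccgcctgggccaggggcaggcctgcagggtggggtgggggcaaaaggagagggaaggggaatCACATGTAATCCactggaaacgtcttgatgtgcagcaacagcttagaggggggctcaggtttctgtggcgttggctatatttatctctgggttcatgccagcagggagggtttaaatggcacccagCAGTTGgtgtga
Des, chr1:75360042-75360291, plus strand: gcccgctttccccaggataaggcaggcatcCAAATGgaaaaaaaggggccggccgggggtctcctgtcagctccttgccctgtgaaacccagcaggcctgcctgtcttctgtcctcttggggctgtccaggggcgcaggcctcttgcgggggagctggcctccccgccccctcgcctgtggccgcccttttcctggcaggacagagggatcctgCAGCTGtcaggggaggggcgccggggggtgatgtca
The Myog window held E-boxes that begin 138 and 12 bases before the start and 1 TAATCC match that abuts the first of them. Its last 15 bases lie inside the first exon in the GENCODE annotation. The Des window held E-boxes beginning 220 and 36 bases before the start, the nearer of them CAGCTG, the form preferred by MyoD family factors. The Myf5 window held neither motif, although Myf5 was also lower in null hindlimb at e11.5. The windows of the other matched genes, Met, Pax7 and Actc1, held no TAATCC, and these genes were lower at that age too. Met had 1 E-box in its window, and Pax7 and Actc1 had none. A relation between these motifs and the differences was not tested. Among 32851 promoter windows of the same length, 66.2% held CANNTG, 13% held CAGCTG and 6.25% held TAATCC.

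Each library held between 17.4 and 53.6 M reads (M stands for 1000000), and 1 read was worth at most 0.0575 CPM. Pitx1 itself was at 124 ± 10.9 CPM (SD, n = 3) in wild type and 21.2 ± 1.81 CPM in null hindlimb at e11.0. At e11.5 it was at 338 ± 23.7 and 79.8 ± 8.31 CPM, and CD1 forelimb had 0.352 ± 0.1 CPM against 209 ± 22.5 CPM for CD1 hindlimb. The Pitx1 level matched the label of its group in all 18 libraries. Replicate 3 stood apart from replicates 1 and 2 within each group, and the fits below hold a term for the run. Without that term limma called none of the 10 genes in any comparison (lowest adjusted p = 0.154 in CD1, 0.214 at e11.0 and 0.167 at e11.5), so differences are also given within the shared run and within the replicate 3 libraries.

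**Figure D1:**
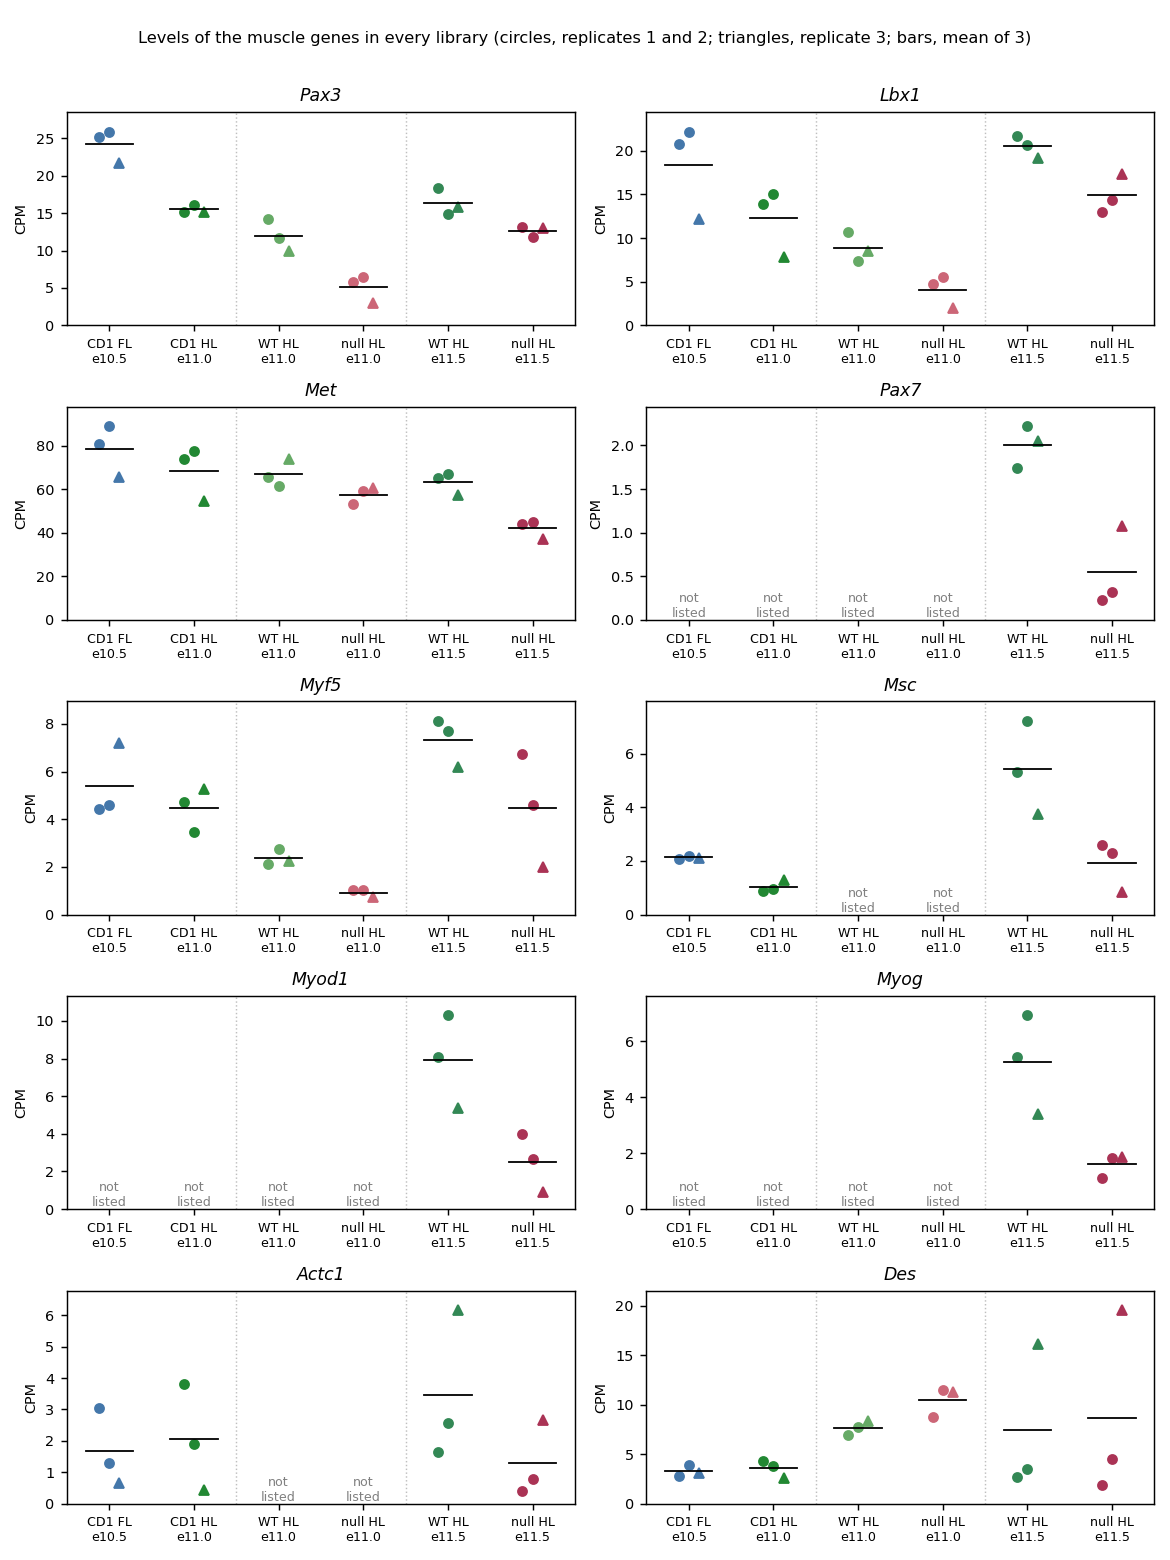
Level of each of the 10 muscle genes in CPM (vertical axes, from 0) in the 18 libraries, by group. Circles are replicates 1 and 2, triangles replicate 3 and bars the mean of 3, FL is forelimb and HL hindlimb, and dotted lines part the separately normalized tables. Pax3 libraries of the Pitx1 null group at e11.0 lie between 2.97 and 6.51 CPM, below the wild-type libraries at 9.96 to 14.2 CPM.

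Per kilobase of exon, the wild-type hindlimb at e11.5 had its highest levels for Lbx1 (8.25 ± 0.507 CPM per kb) and Met (8.24 ± 0.662 CPM per kb), which did not differ beyond their spread. Myod1 (4.26 ± 1.33 CPM per kb), Myf5 (3.52 ± 0.495) and Myog (3.52 ± 1.18) followed and overlapped in spread. Pax3 stood at 2.64 ± 0.297 CPM per kb, Actc1 at 2.14 ± 1.48, Msc at 2.13 ± 0.685 and Des at 1.98 ± 2.02, again within their spread of each other. Pax7 was far the lowest, at 0.342 ± 0.0413 CPM per kb. The migration genes Lbx1 and Met were thus at least as high per length as the bHLH factors. These are levels of bulk RNA, and the share of each that came from muscle cells, for Met as for the others, is not known. In the e11.0 table, which does not list the later genes, the wild-type order per kb was Met (8.75 ± 0.818), Lbx1 (3.56 ± 0.683), Des (2.05 ± 0.195), Pax3 (1.93 ± 0.348) and Myf5 (1.14 ± 0.166). Des and Pax3 did not differ there beyond their spread.

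The CD1 comparison set hindlimb buds at e11.0 against forelimb buds at e10.5. Pax3, Lbx1 and Msc were lower in hindlimb, and Met, Myf5, Actc1 and Des did not pass the test. Of the 7 genes listed, 3 were lower and 0 higher by limma (adjusted p under 0.05), where 3.46% of all listed genes were lower and 2.41% higher. No gene was higher at an unadjusted p under 0.05 either, by edgeR or in the authors' deposited table. Their median log2 fold change was -0.21, against 0.01 over all genes. In bulk RNA a smaller number of muscle cells and less RNA per muscle cell cannot be told apart, here or in the later comparisons.

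Pax3 measured 25.2, 25.9 and 21.7 CPM in forelimb replicates 1 to 3 and 15.2, 16.1 and 15.1 CPM in hindlimb. All hindlimb libraries lay below all forelimb libraries, as for 5.32% of listed genes. The log2 fold change, on the log2(CPM + 1) scale, was -0.61 ± 0.07 (SE, limma adjusted p = 0.000679), with -0.67 within the shared run and -0.49 in replicate 3. Lbx1 measured 20.8, 22.2 and 12.2 CPM in forelimb and 13.9, 15 and 7.89 CPM in hindlimb. The groups overlapped because replicate 3 was low in both, and within each replicate number the hindlimb library was the lower (-0.55 ± 0.07, adjusted p = 0.00139). Msc, the bHLH repressor, measured 2.08, 2.2 and 2.11 CPM in forelimb and 0.879, 0.946 and 1.29 CPM in hindlimb, without overlap (-0.63 ± 0.11, adjusted p = 0.00982). Without hindlimb replicate 1 the adjusted p of Msc was 0.0584.

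Met, the Hgf receptor, measured 80.6, 89.0 and 65.5 CPM in forelimb and 73.7, 77.6 and 54.5 CPM in hindlimb. Each hindlimb library was below its same-numbered forelimb library, but the difference did not pass (-0.19 ± 0.05, adjusted p = 0.0729), except without forelimb replicate 1 (adjusted p = 0.00706) and in the authors' deposited table (adjusted p = 0.0111). Myf5 measured 4.43, 4.61 and 7.19 CPM in forelimb and 4.73, 3.47 and 5.28 CPM in hindlimb, with overlap (-0.21 ± 0.12, adjusted p = 0.319). Actc1, the cardiac alpha-actin that embryonic skeletal muscle also makes, measured 3.04, 1.31 and 0.666 CPM in forelimb and 3.82, 1.89 and 0.428 CPM in hindlimb (0.12 ± 0.24, adjusted p = 0.813). Its libraries varied more within a group than between groups. Des, the muscle intermediate filament desmin, ranged from 2.81 to 3.96 CPM in forelimb and from 2.57 to 4.36 CPM in hindlimb (0.09 ± 0.14, adjusted p = 0.739).

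**Figure D2:**
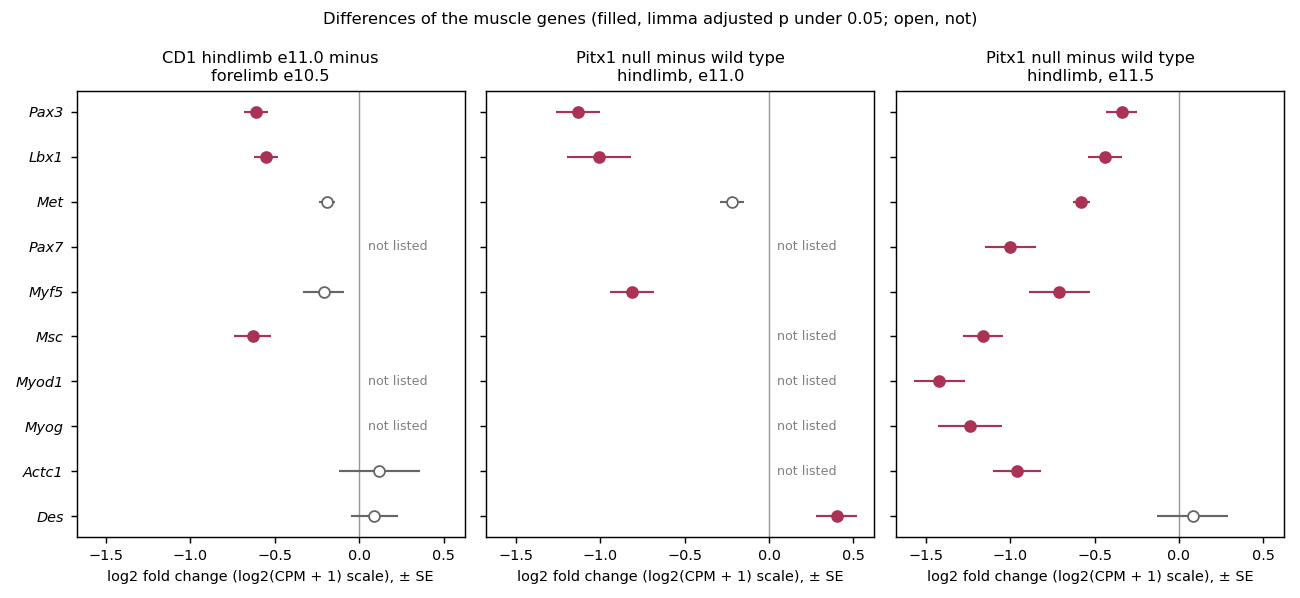
Log2 fold change ± SE of each muscle gene (horizontal axis, log2(CPM + 1) scale) in the 3 comparisons, CD1 hindlimb minus forelimb and Pitx1 null minus wild type hindlimb at e11.0 and e11.5. Filled points have a limma adjusted p under 0.05; Myod1 at e11.5 lies lowest at -1.42, and Des at e11.0 is the only filled point above 0, at 0.40.

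At e11.0 the precursor genes Pax3 and Lbx1 and the commitment factor Myf5 were lower in Pitx1 null than in wild type hindlimb, at 42.4%, 46.4% and 39.0% of the wild-type mean CPM. Des was higher, at 137% of it, and Met did not pass. Of the 5 listed genes, 3 were lower and 1 was higher, where 8.41% of all listed genes were lower and 4.73% higher. The median log2 fold change of the 5 was -0.81, against -0.07 over all genes. At this age the balance of all calls depends on the scaling: 664 genes were called higher and 1179 lower with CPM as deposited, but 1326 higher and 403 lower after median-ratio scaling. The calls of the 5 muscle genes were the same under the 3 other scalings tried.

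Pax3 measured 14.2, 11.7 and 9.96 CPM in wild type and 5.74, 6.51 and 2.97 CPM in null hindlimb. The groups did not overlap, as for 13.7% of listed genes in the direction of lower in null. The log2 fold change was -1.13 ± 0.13 (limma adjusted p = 0.00128), with -0.97 within the shared run and -1.47 in replicate 3, and it passed without any 1 of the 6 libraries. Only 0.2% of listed genes were called lower with a log2 fold change of -1 or below, among them Pax3 and Lbx1. Lbx1 measured 10.7, 7.36 and 8.47 CPM in wild type and 4.78, 5.52 and 1.99 CPM in null hindlimb, without overlap (-1.01 ± 0.19, adjusted p = 0.0141). The lowest library was null replicate 3, and the difference was -0.69 within the shared run and -1.66 in replicate 3. Lbx1 lost its call without null replicate 3, wild type replicate 3 or wild type replicate 1 (adjusted p = 0.0833, 0.0887 and 0.111).

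Myf5 measured 2.11, 2.76 and 2.24 CPM in wild type and 1.01, 1.04 and 0.725 CPM in null hindlimb, which is 41 to 96 reads and 19 to 32 reads per library. All null libraries lay below all wild-type libraries (-0.81 ± 0.13, adjusted p = 0.00714). Without either replicate 3 library the log2 fold change was -0.76 and the call was lost (adjusted p = 0.0661 and 0.068). Met measured 65.8, 61.7 and 74.0 CPM in wild type and 53.1, 59.0 and 60.5 CPM in null hindlimb. The groups did not overlap, yet the difference was small (-0.22 ± 0.07, adjusted p = 0.071). It passed with the replicate number as a block (adjusted p = 0.0438) and without wild type replicate 2 (adjusted p = 0.0131). The ratio of Met to Pax3 within a library was 4.62, 5.28 and 7.43 in wild type and 9.26, 9.07 and 20.4 in null hindlimb.

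Des went the other way at e11.0, from 6.94, 7.77 and 8.4 CPM in wild type to 8.76, 11.53 and 11.3 CPM in null hindlimb. The groups did not overlap, as for 4.78% of listed genes in that direction, and the log2 fold change was 0.40 ± 0.12 (limma adjusted p = 0.0464). Both parts of the design gave about the same difference, 0.41 within the shared run and 0.39 in replicate 3. The call was lost without null replicate 2, null replicate 3, wild type replicate 1 or wild type replicate 3 (adjusted p = 0.203, 0.172, 0.195 and 0.169). Desmin is also made outside skeletal muscle, in smooth muscle and in cells around vessels. Of 10 smooth and cardiac muscle markers 8, Myh11 and Nkx2-5 among them, were not listed at e11.0. The summed level of the other 2, Acta2 and Tagln, was 6.12 to 19.1 CPM in wild type and 6.8 to 14.1 CPM in null hindlimb.

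At e11.5 all 10 genes were listed and 9 of them were lower in Pitx1 null hindlimb, all but Des. Pax7 and Actc1 exceeded 0.5 CPM in only 1 and 2 null libraries, so they reached the table through wild type, where they were high, and the listing minimum partly fixes their direction. Among the other 8 genes 7 were lower. Of these 8, Myog, Myod1 and Msc fell the most, to 30.4%, 31.7% and 35.2% of the wild-type mean. Myf5, Met, Lbx1 and Pax3 stood at 60.6%, 66.6%, 72.6% and 77.3%. Pax7 and Actc1 stood at 27.1% and 37.0%, which the listing minimum favours. No gene was higher by limma, at an unadjusted p under 0.05, by edgeR or in the authors' deposited table. Over all listed genes 7.96% were lower and 2.83% higher. The median log2 fold change was -0.84 for the 10 genes against -0.02 over all genes. The -0.84 includes Pax7 and Actc1, so the listing minimum partly fixes it too. With CPM as deposited 382 listed genes were called higher and 1073 lower, and after median-ratio scaling 743 and 919.

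Among the precursor genes, Pax3 measured 18.4, 14.9 and 15.8 CPM in wild type and 13.1, 11.8 and 13 CPM in null hindlimb. The groups did not overlap, as for 11% of listed genes in the direction of lower in null, but the step from the lowest wild-type to the highest null library was small. The log2 fold change was -0.34 ± 0.09 (limma adjusted p = 0.0466). Pax3 did not pass after median-ratio or trimmed-mean scaling, by edgeR on the recovered reads (adjusted p = 0.057, 0.0563 and 0.0546), or in 4 of the 6 fits without 1 library, those without null replicate 2 or 3 or wild type replicate 1 or 3 (adjusted p = 0.113 to 0.175). Lbx1 measured 21.7, 20.7 and 19.2 CPM in wild type and 13, 14.4 and 17.3 CPM in null hindlimb, without overlap (-0.44 ± 0.10, adjusted p = 0.0251). Its difference was -0.60 within the shared run and -0.14 in replicate 3, and the call was lost without null replicate 2 or wild type replicate 1 or 2 (adjusted p = 0.106, 0.0772 and 0.0641).

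Met measured 65.2, 67.1 and 57.5 CPM in wild type and 43.9, 45.1 and 37.4 CPM in null hindlimb. The null libraries were at 67.4%, 67.2% and 65.0% of their same-numbered wild-type libraries, the most even difference among the 10 genes at this age (-0.58 ± 0.05, limma adjusted p = 0.000589). It passed without any 1 library. Pax7, the gene of reserve progenitors, measured 1.74, 2.22 and 2.05 CPM in wild type and 0.231, 0.317 and 1.08 CPM in null hindlimb, or 62 to 109 and 7 to 58 reads. The replicate 3 null library was the high one, at 52.7% of its wild-type partner where the others were at 13.3% and 14.3%. The groups did not overlap (-1.0 ± 0.15, adjusted p = 0.00513), which the listing minimum partly fixes, since a single null library exceeded it.

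Both commitment factors were lower, and the difference between them was not tested. Myf5 measured 8.13, 7.71 and 6.17 CPM in wild type and 6.75, 4.58 and 2.01 CPM in null hindlimb, and null replicate 1 lay above wild type replicate 3. The log2 fold change was -0.71 ± 0.18 (limma adjusted p = 0.036), with -0.44 within the shared run and -1.25 in replicate 3. Its call was lost without null replicate 2 or 3 or wild type replicate 1 or 3 (adjusted p = 0.147, 0.173, 0.0644 and 0.18). Myod1 measured 8.08, 10.3 and 5.38 CPM in wild type and 3.97, 2.67 and 0.895 CPM in null hindlimb, without overlap. On the log2(CPM + 1) scale it had the lowest fold change of the 10 genes, -1.42 ± 0.15 (adjusted p = 0.00123), and it passed without any 1 library. By mean CPM, Pax7 (27.1% of wild type) and Myog (30.4%) stood lower than Myod1 (31.7%). The ratio of Myod1 to Myf5 within a library was 0.993, 1.34 and 0.872 in wild type and 0.588, 0.584 and 0.444 in null hindlimb, with no overlap and no test.

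Msc measured 5.32, 7.23 and 3.75 CPM in wild type and 2.58, 2.3 and 0.858 CPM in null hindlimb. Its groups did not overlap (-1.16 ± 0.12, limma adjusted p = 0.00121). Myog, the differentiation factor, measured 5.43, 6.93 and 3.41 CPM in wild type and 1.12, 1.83 and 1.85 CPM in null hindlimb, again without overlap (-1.24 ± 0.19, adjusted p = 0.00593). For Myog the difference was wider within the shared run (-1.54) than in replicate 3 (-0.63), the reverse of Myod1 (-1.25 and -1.75). The ratio of Myog to Myod1 within a library was 0.672, 0.671 and 0.633 in wild type and 0.283, 0.683 and 2.06 in null hindlimb, so it did not move in 1 direction. Replicate 3 of this age was also the unstranded library of each genotype. Msc and Myog both passed without any 1 library.

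Of the 2 structural genes Actc1 was lower and Des did not pass. Actc1 measured 1.63, 2.57 and 6.17 CPM in wild type and 0.397, 0.794 and 2.65 CPM in null hindlimb. Replicate 3 was the highest in both groups, so the groups overlapped, but the difference was -0.95 within the shared run and -0.98 in replicate 3 (-0.96 ± 0.14, limma adjusted p = 0.00485). Des measured 2.67, 3.48 and 16.2 CPM in wild type and 1.92, 4.55 and 19.6 CPM in null hindlimb, with replicate 3 far above the others in both groups (0.08 ± 0.21, adjusted p = 0.828). The smooth muscle actin Acta2 was also lower in null hindlimb at this age (4.67, 6.91 and 14.6 CPM against 2.08, 3.6 and 5.6 CPM, -0.97 ± 0.18, adjusted p = 0.0117), with overlap of the groups. Acta2 was called in 4 of the 6 fits without 1 library, and lost its call without null or wild type replicate 3 (limma adjusted p = 0.0564 and 0.0582). Its part in the Actc1 difference was not tested.

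**Figure D3:**
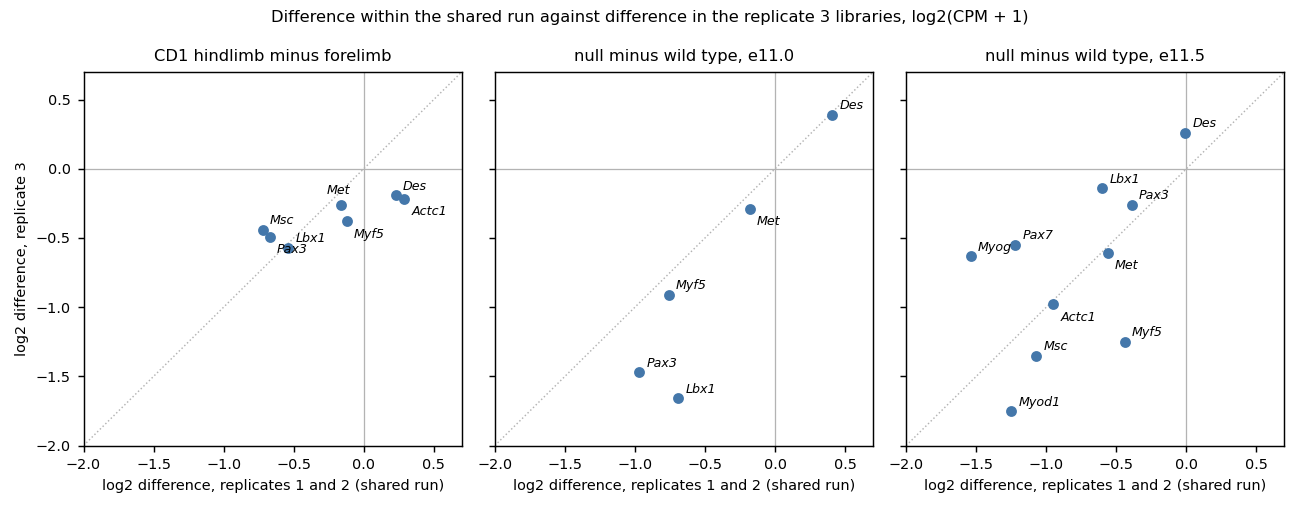
Log2 difference of each muscle gene between the means of replicates 1 and 2 (shared run, horizontal axis) and between the replicate 3 libraries (vertical axis), on log2(CPM + 1), for the 3 comparisons; the dotted line marks equal values. At e11.5 all genes but Des lie below 0 on both axes, with Myf5 and Myod1 farther from 0 in replicate 3 and Myog, Pax7 and Lbx1 farther in the shared run.

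Whether the Pitx1 effect differed between ages was tested for the 5 genes listed at both, in 1 fit over 12 libraries and 12935 genes. None of the 5 passed, where 0.363% of all genes did. Pax3 had an effect of -1.13 at e11.0 and -0.34 at e11.5, a difference of 0.79 ± 0.17 (limma adjusted p = 0.0649). It passed with the replicate block (adjusted p = 0.0431), without wild type e11.0 replicate 2 (adjusted p = 0.00572) and without wild type e11.5 replicate 1 (adjusted p = 0.0489). Lbx1 differed by 0.57 ± 0.25 (adjusted p = 0.222) and Met by -0.36 ± 0.09 (adjusted p = 0.0981). Both passed without wild type e11.0 replicate 2 (adjusted p = 0.0179 and 0.0193), and Met passed by edgeR (adjusted p = 0.0396). Myf5 differed by 0.10 ± 0.23 (adjusted p = 0.826) and Des by -0.32 ± 0.26 (adjusted p = 0.475). At an unadjusted p under 0.05, 2 genes had a positive and 1 a negative difference.

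The other genes of the pathway were taken from lists. These held 11 precursor factors and migration cues, 10 myogenic factors and cofactors and 28 contractile and differentiation genes. They also held 10 Notch genes, 6 genes entered as inhibitors of myogenesis and 5 genes entered for muscle connective tissue. Among the 6, Fst binds the inhibitor myostatin and is not itself such an inhibitor. In CD1 hindlimb 5 of 11 precursor factors and migration cues were lower and 2 higher. Counts of this list include the cues Hgf and Cxcl12, which act on the precursors, so they are not counts of precursor genes alone. Sim2, a bHLH-PAS factor, had the largest difference (15.9 ± 3.94 to 5.24 ± 1.64 CPM, -1.44 ± 0.08, limma adjusted p = 1.02e-05), followed by Eya4, a transcriptional coactivator (-0.81 ± 0.10). Dmrt2, a factor of the dermomyotome, was higher (0.72 ± 0.12), as was Cxcl12 (0.64 ± 0.07), a chemokine that guides migrating precursors. Eya2 was lower (-0.42 ± 0.08). Hgf was lower by a small step (-0.32 ± 0.05, adjusted p = 0.00686). Of the later lists, 1 of 5 listed myogenic factors (Tcf12, -0.29 ± 0.05) and 1 of 7 contractile genes (Chrna1, a subunit of the acetylcholine receptor, -0.54 ± 0.13) were lower. None was higher by limma, by edgeR or at an unadjusted p under 0.05. The Notch genes Jag1 (0.48 ± 0.05) and Hey1 (0.36 ± 0.06) were higher, 2 of 10, and the bHLH inhibitors Id2 (-0.29 ± 0.05) and Twist1 (-0.23 ± 0.05) were lower, 2 of 5. Twist1 did not pass with the replicate block (adjusted p = 0.0622), which left 1 inhibitor. When each library was left out in turn, Hgf was called in 4 of 6 fits, Id2 in 3, Twist1 in 2, and Eya2 and Chrna1 in 1 each, and the inhibitors lower numbered 0 to 3.

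At e11.0 7 of 11 precursor factors and migration cues were lower and 1 higher in null hindlimb, with a median log2 fold change of -0.36. The cues Cxcl12 and Hgf were among those lower. The count lower was 2 to 8 when 1 library was left out. Cxcl12 measured 84.3, 67.7 and 49.1 CPM in wild type and 32.6, 32.1 and 24.1 CPM in null hindlimb, without overlap (-1.13 ± 0.09, limma adjusted p = 0.000173). Sim2 (-0.73 ± 0.17) and Meox2, a homeodomain factor of limb muscle precursors (-0.64 ± 0.09), were also lower, as was Hgf (61 ± 12.7 to 43.1 ± 2.34 CPM, -0.47 ± 0.10). Dmrt2 rose from 12.9 ± 2.4 to 22.8 ± 5.84 CPM with the loss of Pitx1 (0.76 ± 0.11, adjusted p = 0.00446), and did not pass without wild type replicate 1 (adjusted p = 0.0508). Eya1 and Eya4 were called lower with CPM as deposited but not after median-ratio scaling (adjusted p = 0.075 and 0.059), which left 5 genes lower. The 2 Notch and myogenic calls, Hey1 and Mef2d, were likewise lost under all 3 other scalings. None of 6 listed contractile genes passed by limma or edgeR, while 2 were higher and 0 lower at an unadjusted p under 0.05. With the replicate block 2 passed, both higher, and under each of the other scalings 1 did. Mstn, the secreted inhibitor myostatin, was higher (0.50 ± 0.14, adjusted p = 0.0455), but was called in only 1 of the 6 fits without 1 library. In the same fits Hgf was called 4 times, Sim2, Eya4 and Hey1 2 times each, and Eya1 and Mef2d 1 time each. Sim2 exceeded 0.5 CPM in only 2 null libraries and was listed through wild type.

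At e11.5 6 of 11 precursor factors and migration cues, the cue Cxcl12 among them, were lower and 0 higher in null hindlimb by limma. By edgeR 5 and 0 were, and at an unadjusted p under 0.05 9 and 0. Cxcl12 (167, 171 and 208 CPM to 106, 105 and 89.6 CPM, -0.85 ± 0.09, limma adjusted p = 0.00123) had the largest difference among the called genes of the list, with Eya1 (-0.48 ± 0.09), Eya4 (-0.42 ± 0.08), Eya2 (-0.37 ± 0.09) and Gab1, an adaptor of Met signalling (-0.37 ± 0.07), after it. Sim2 passed narrowly (-0.27 ± 0.07, adjusted p = 0.0466) but not with the replicate block (adjusted p = 0.0521) and in none of the fits without 1 library. Gab1 was called in 4 of those 6 fits, Eya1 and Eya4 in 3 each and Eya2 in 1, and the count lower was 1 to 8. Dmrt2, which was higher in null hindlimb at e11.0, measured 11.7, 13.6 and 15.1 CPM in wild type and 4.76, 11.3 and 13.9 CPM in null hindlimb at e11.5 (-0.50 ± 0.24, adjusted p = 0.203). Each null library lay below its same-numbered partner, and the difference between the ages did not pass (-1.26 ± 0.30, adjusted p = 0.0903). Vgll2, a muscle cofactor of TEAD factors, measured 2.73, 2.46 and 1.96 CPM in wild type and 0.331, 0.265 and 0.168 CPM in null hindlimb (-1.43 ± 0.10, adjusted p = 0.000164). No null library exceeded 0.5 CPM, so Vgll2 was listed through wild type alone and the listing minimum partly fixes its direction. Pitx3 (-0.67 ± 0.12) and Mef2c (-0.39 ± 0.09) were the other 2 of the 7 listed myogenic factors to be lower, called in 4 and 2 of the 6 fits without 1 library. Pitx3 exceeded 0.5 CPM in 2 null libraries and was also listed through wild type.

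Of 7 listed contractile and differentiation genes at e11.5, 3 were lower and 1 was higher. Cdh15, the muscle cadherin, measured 6.98, 7.57 and 7.76 CPM in wild type and 3.08, 3.6 and 2.16 CPM in null hindlimb (-1.11 ± 0.12, limma adjusted p = 0.00123). Tnnt1, the slow troponin T, went from 4.25 ± 0.145 to 1.99 ± 0.656 CPM (-0.83 ± 0.12, adjusted p = 0.00421) and Klhl41 from 1.59 ± 0.371 to 0.729 ± 0.116 CPM (-0.58 ± 0.13). Chrna1 went the other way, at 0.985, 1.23 and 1.09 CPM in wild type and 1.65, 2.38 and 3.49 CPM in null hindlimb (0.71 ± 0.15, adjusted p = 0.0208), and was called in 2 of the 6 fits without 1 library. The other 21 genes of the list, sarcomeric myosins among them, were not listed at this age. Fst (follistatin), which binds myostatin and activins, was lower (3.43 ± 0.912 to 1.17 ± 0.526 CPM, -1.04 ± 0.11, adjusted p = 0.00123), and Id1, an inhibitor of bHLH factors, was higher (0.47 ± 0.07). The Notch ligands Dll1 (-0.52 ± 0.10) and Jag1 (-0.40 ± 0.11) were lower. Jag1 did not pass with the replicate block (adjusted p = 0.0613). Without 1 library Dll1 was called in 4 of 6 fits, Klhl41 in 3 and Jag1 in 2. Over all 6 of these fits, called or not, the log2 fold change of Jag1 ranged from -0.51 to -0.22.

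Muscle connective tissue genes belong to limb mesenchyme and shape the muscles around them. A list of 5 genes was entered for this tissue, but 1 of them, Tcf4, is a bHLH gene distinct from Tcf7l2 and not particular to it. Of the 5 genes 3 were lower in null hindlimb at e11.0 and 2 at e11.5, by limma and by edgeR. At either age 0 were higher, also at an unadjusted p under 0.05. Tbx4, the hindlimb T-box factor, was lower in null hindlimb at e11.0 (66.1 ± 10.3 to 28.3 ± 4.33 CPM, -1.19 ± 0.11, limma adjusted p = 0.000295) and at e11.5 (189 ± 26.8 to 80.5 ± 14.1 CPM, -1.23 ± 0.05). Tcf7l2, a Wnt effector of muscle connective tissue fibroblasts, was lower at both ages (-0.69 ± 0.10 and -0.77 ± 0.11). Osr2 was lower at e11.0 (-0.72 ± 0.14, called in 2 of 6 fits without 1 library) and did not pass at e11.5 (adjusted p = 0.101). Tcf4 and Osr1 passed in no comparison by limma with CPM as deposited and the run term. With the replicate block 4 genes of the list were lower at e11.0. In CD1 1 of 5 genes passed, Tbx4, higher in hindlimb (4.23 ± 0.07). By edgeR and under each of the other scalings 1 gene of the list was also lower in CD1 hindlimb.

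**Figure D4:**
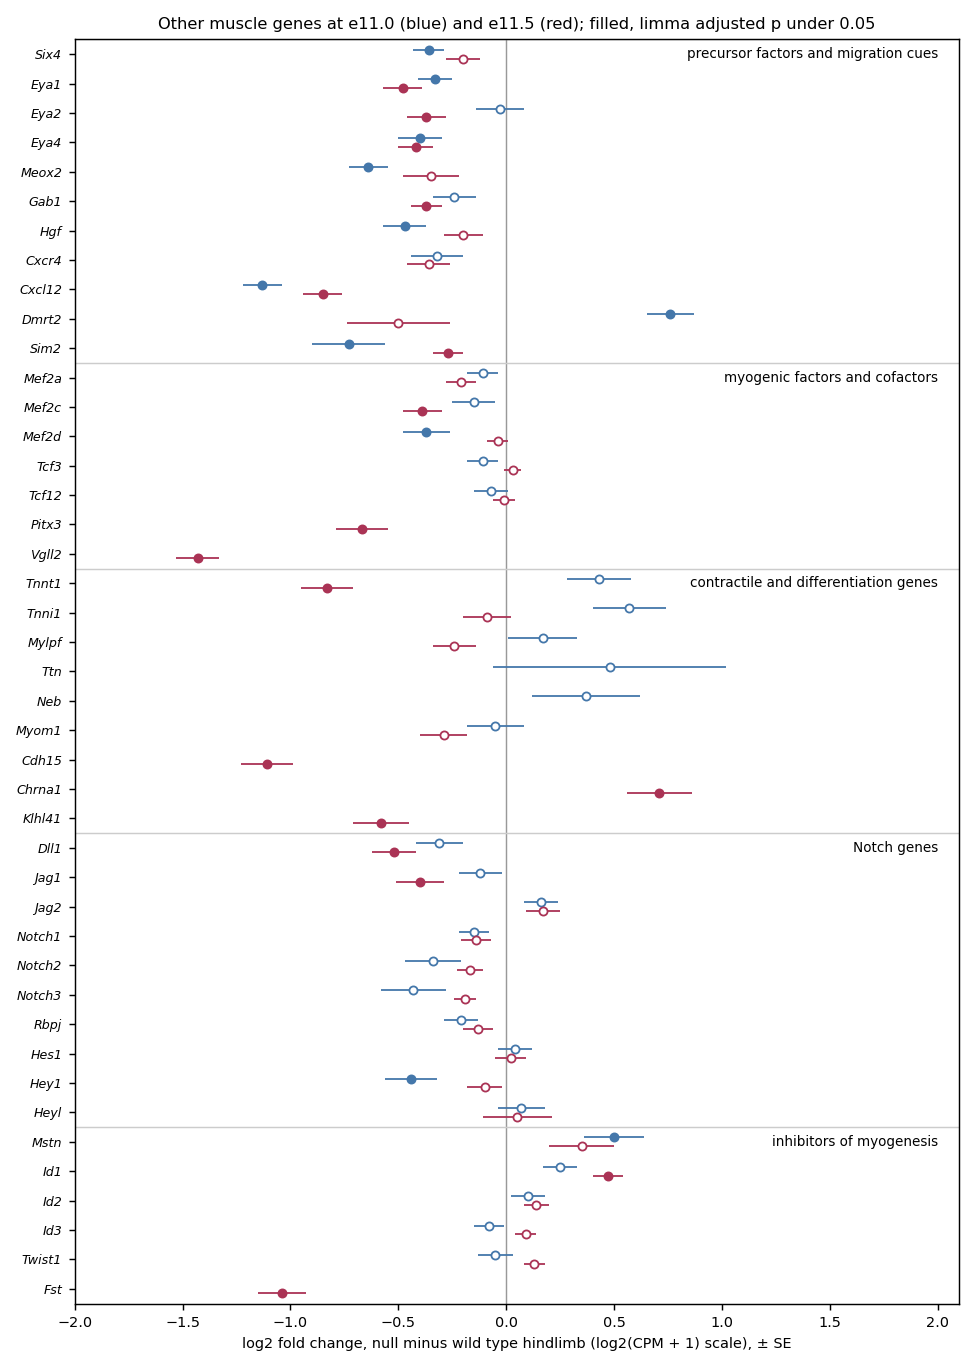
Log2 fold change ± SE (horizontal axis, log2(CPM + 1) scale) of other muscle genes between Pitx1 null and wild type hindlimb at e11.0 (blue) and e11.5 (red), grouped by list. Filled points have a limma adjusted p under 0.05; Dmrt2 is farthest above 0 at e11.0 (0.76), though at -0.50 at e11.5 without passing, and Vgll2 farthest below 0 at e11.5 (-1.43).

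Markers of other tissues also differed between the groups, some in the direction of the muscle genes and some against it. At e11.0 endothelial markers were lower in null hindlimb (7 of 10, or 3 to 4 under other scalings; summed level 215 to 296 CPM in wild type and 138 to 229 CPM in null) and surface ectoderm markers were higher (5 of 8; 278 to 688 and 367 to 833 CPM). Of 8 limb mesenchyme markers 4 were lower at e11.0, or 3 by edgeR (summed level 792 to 1054 and 574 to 821 CPM). At e11.5 5 of 8 were higher (1410 to 1689 and 1485 to 1808 CPM). Some went the other way without passing by limma. These were Fgf10 at e11.0 (0.21 ± 0.12, adjusted p = 0.208) and, at e11.5, Prrx1 (-0.17 ± 0.08, adjusted p = 0.179) and Hand2 (-0.12 ± 0.05, adjusted p = 0.113). Each null library had the lower mesenchyme sum of its same-numbered pair at e11.0 and the higher sum at e11.5. When 1 library was left out, the endothelial and the ectodermal counts at e11.0 each ranged from 0 to 7, the mesenchyme count lower from 0 to 6 and the erythroid count higher from 0 to 8. The part of these tissues in the muscle differences was not tested. Somite and trunk markers had 3 or 4 of 7 genes listed, Uncx, Tbx6 and Nkx3-2 in no table. Their summed level was 25.6 to 35.1 CPM in wild type and 30.7 to 40.3 CPM in null hindlimb at e11.0. Only Meox1 was higher there (0.58 ± 0.10, called in 2 of 6 fits without 1 library). Tcf15 (9.32 ± 0.153 to 8.65 ± 0.931 CPM) and Pax1 (4.8 ± 3.19 to 4.19 ± 0.49 CPM) were not. At e11.5 the summed level was 54.6 to 59.8 and 42.2 to 56.9 CPM, with Pax9 lower (-1.44 ± 0.15). In CD1 Pax1 was lower in hindlimb (-1.39 ± 0.12). Of 10 neural markers 8, Sox1, Sox2, Pax6 and Olig2 among them, were listed in no table, and none of the rest passed by limma or edgeR, with 1 lower at e11.5 at an unadjusted p under 0.05. Erythroid markers had 4 of 7 genes higher in CD1 hindlimb, 1 of 8 higher in null hindlimb at e11.0 and 0 of 8 called at e11.5 by limma, by edgeR or at an unadjusted p under 0.05.

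Across the 18 libraries, after the mean of each table and run class was removed, Lbx1 was the gene most like Pax3 among 12674 genes (Pearson r = 0.95). Col23a1, Efnb2 and Gli3 (r = 0.95) and Zswim6 (r = 0.94) came next. Myf5 was less like Pax3 (r = 0.75), Met less again (r = 0.64), and Des ran opposite (r = -0.54). The genes most like Myf5 were Dpyd and Stard9 (r = 0.96), then Herc1, 4930402H24Rik and Wif1 (r = 0.95), and those most like Des were Wnt10a (r = 0.92), Zfp35 (0.85), Atp5g1 (0.84), Pdlim1 (0.83) and Arl4c (0.82). These correlations are descriptions: the libraries share groups, so genes that differ between the groups are alike by that alone.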

How the data were processed

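The genes and gene lists described here were chosen with earlier results of these data known. Reads were aligned with STAR, counted with featureCounts and analysed with edgeR against GRCm38 (mm10), per the submitters' processing notes; versions and strand settings are not given in the sources used here. The authors deposited 1 table per comparison with CPM per library, and per the file headers each table also holds the authors' log2 fold change and average log2 CPM, a likelihood-ratio score, and a p-value with its adjusted value. The tables list 13540 (CD1), 14027 (e11.0) and 13478 (e11.5) genes. GENCODE M 21 matched 13519, 14004 and 13463 of them and gave positions and exon lengths. In every library 100% of CPM values were whole multiples of 1 read (tolerance 0.01 read), which gave the depths and, for edgeR, the reads; intervals from them would cover counting error only.

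The tables were fitted separately by limma 3.58.1 (R 4.3.3, mean-dependent prior) on log2(CPM + 1) with group and run class, which left 3 residual degrees of freedom; the fit of the difference between ages had 6. Tests were two-sided, adjusted by Benjamini-Hochberg over all listed genes, with a threshold of 0.05. The pseudocount of 1 understates the change of low genes. Nothing in the labels ties replicates to different litters or pools; p-values therefore reflect the spread among these libraries alone, which may be technical. Same-numbered libraries of compared groups deviated together (r across genes for replicates 1, 2 and 3: CD1 0.69, 0.80, 0.94; e11.0 0.66, 0.64, 0.86; e11.5 0.73, 0.83, 0.91), although in CD1 replicates 1 and 2 crossed over as closely (0.75 and 0.85). The numbers were therefore also fitted as a block.

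All 10 muscle genes were named in every comparison. From each other muscle list the rule named up to 4 called genes with the largest change, plus genes listed in all tables and called in at least 2 comparisons. From each marker list it named up to 2 called genes. Some markers that did not pass are named as well, where they went against others of their list. Likeness was ranked by Pearson r among genes in all tables with a mean of at least 1 CPM. Alternatives were edgeR 4.0.16 on the recovered reads, a pseudocount of 0.25, a mean of at least 2 CPM, 3 scalings, no run term, the replicate block, replicates 1 and 2 alone, and each library left out. Some genes of the precursor list are not reported here. The fits were also run on simulated counts, drawn independently for each library with the same spread setting for all genes. Those counts held the run class but no other deviation shared by same-numbered libraries, so they give no error rate for these data.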

Additional observations from a re-analysis of the deposited data

Results flagged for a closer look

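Among 45 genes of the 10 and of the other muscle lists that were listed at both ages, the effect of Pitx1 loss differed between e11.5 and e11.0 for 1 by limma, Tnnt1. Its effect at e11.5 minus that at e11.0 was -1.27 ± 0.19 (SE, adjusted p = 0.0142): null minus wild type was 0.43 at e11.0 and -0.83 at e11.5. The e11.0 difference alone did not pass (limma adjusted p = 0.069). Tnnt1 was low at that age, its wild-type mean of 0.789 CPM near the listing minimum of 0.5 CPM and its null mean at 1.41 CPM. Of all genes tested for a difference between ages, 0.363% were called. The Tnnt1 call was kept in 10 of 12 fits without 1 library, all but those without null e11.0 replicate 2 or wild type e11.5 replicate 2 (adjusted p = 0.0551 and 0.0576). It was lost without the run term. The ages also differ in library preparation and were normalized separately, which cannot be told apart from age.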

How the results depend on the processing

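Every alternative kept the direction of each of the called muscle genes. Without the run term the counts of muscle genes lower were 0 in CD1, 0 at e11.0 and 0 at e11.5, and higher 0 at e11.0; over all genes 13, 5 and 11 were called, against 795, 1843 and 1455, and 0 for the difference between ages, against 47. With replicates 1 and 2 alone, which have fewer samples, 0 muscle genes were higher and 1 lower at e11.0, and 471, 199, 483 and 18 genes were called over all. The replicate block called 3442 genes at e11.0 and 210 for the difference, 1 of them a muscle gene (Pax3), and edgeR called 1 muscle gene for the difference (Met). The block changed no call of the 10 genes besides Met at e11.0 and Pax3 in the difference. The authors' deposited table calls 1689, 2895 and 2644 genes. When 1 library was left out, muscle genes lower ranged from 2 to 4 in CD1, 1 to 4 at e11.0 and 6 to 9 at e11.5, higher from 0 to 1 at e11.0, and differing between ages from 0 to 3. All genes called ranged from 394 to 1191, 116 to 5273, 433 to 2627 and, for the difference, 10 to 2567. The cause was not tested. A mean of at least 2 CPM left Msc and Actc1 (CD1), Myf5 (e11.0) and Pax7 (e11.5) untested. For other list genes called, 1028 values by setting kept their call and 389 lost it, none in the opposite direction. Low read numbers limit Pax7 (7 to 58 reads in null hindlimb at e11.5) and Myf5 (19 to 32 at e11.0).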
